A study of Mus musculus with 12 samples.

Results

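The 10 genes described here encode integrin subunits that fibroblasts use to hold the matrix around them, 7 α subunits (*Itga1*, *Itga2*, *Itga3*, *Itga5*, *Itga6*, *Itga11* and *Itgav*) and 3 β subunits (*Itgb1*, *Itgb3* and *Itgb5*). They were taken by gene symbol from the 39179 genes counted in mouse pancreatic stellate cells (PSCs). No measured value was part of the rule, but the list was drawn up with earlier results of these data known. RNA of PSCs was read in 12 libraries, 4 from each of 3 cultures kept for 72 h. Mono-PSCs were cultured alone, 2W-PSCs together with pancreatic cancer cells (PCCs), and 3W-PSCs together with PCCs and macrophages (MØs), to learn how neighbouring cells change the fibroblasts. All cultures held the same PSC line, labelled C57BL/6, immortalised with SV40, taken from 1 clone and marked with mCherry, and the partners were a mouse pancreatic tumour line, grown with doxycycline and marked with EGFP, and a mouse MØ line marked with TagBFP. Whether doxycycline was also in the co-culture medium is not given in the sources used here. PSCs were sorted for mCherry in the absence of the other colours. The total number of cells seeded per flask was the same, so fewer of them were PSCs in the co-cultures, and the number of PSCs cannot be told apart from the company they grew in.

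An integrin is a pair of 1 α and 1 β subunit that spans the cell membrane. Outside the cell the pair binds matrix proteins or other cells, and inside it is linked to actin through talin, kindlin and the rest of the adhesion complex. The β1 subunit joins most α subunits, among them the collagen receptors α1, α2 and α11, the laminin receptors α3 and α6, and the fibronectin receptor α5. The αv subunit joins β1, β3 or β5 and binds ligands with an arginine-glycine-aspartate (RGD) motif, such as vitronectin, fibronectin and osteopontin, and αv integrins are known to release TGFβ from its latent form in stroma. Activated PSCs deposit much of the matrix of pancreatic tumours.

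Levels are given in CPM, counts relative to the size of a library, with sizes scaled by the TMM method. A 3′ kit was used that reads a single fragment near the end of a transcript, so levels of different genes were compared without division by length. The libraries held 4561817 to 8093368 counts. One 2W-PSC library, replicate 2, stood apart from the others of its culture, with rank correlations of 0.858 to 0.920 across genes, and where results that involve 2W-PSCs changed without it, their values without it are given too. Fibroblast markers, 12 genes, were abundant in every library, but their sums differed, with 9106 to 12663 CPM (mono-PSCs), 12593 to 19656 CPM (2W-PSCs) and 7209 to 8733 CPM (3W-PSCs). Of 10 tested, edgeR called 6 lower and 1 higher in 3W-PSCs against 2W-PSCs, beside 4.95% and 5.73% of all genes tested. Among the fibroblast markers, *Des*, the classical marker of stellate cells, had 2 to 25 counts and *Lum* at most 7. Summed over 13 genes, epithelial markers came to 0.900 to 4.76 CPM in mono-PSCs, and the sums were 75.9 to 150.3 CPM for 2W-PSCs and 52.8 to 92.2 CPM for 3W-PSCs. In the co-cultures 5 (2W-PSCs) and 6 (3W-PSCs) of these 13 genes had at least 10 counts in every library. The keratin genes *Krt7*, *Krt8*, *Krt18* and *Krt19* and the E-cadherin gene *Cdh1* were called higher in both co-cultures than in mono-PSCs by edgeR (5 of 5 tested in 2W-PSCs, and 6 of 6, with *Muc1*, in 3W-PSCs), led by *Krt18* with means of 0.0946, 37.3 and 23.2 CPM, whereas *Cldn4* had none in any library and *Epcam* at most 3. The genes called had at most 7 counts in any mono-PSC library, so they entered the tests only through the co-cultures. Their calls are a description, beside 0.839% (2W-PSCs) and 13.4% (3W-PSCs) of all genes called higher. MØ markers, 12 genes, summed to 2.26 to 8.72 CPM in mono-PSCs, with 3.64 to 12.8 CPM for 2W-PSCs and 12.3 to 53.0 CPM for 3W-PSCs, in which 3 of the genes had at least 10 counts in every library. Of 4 tested, *Cd53* (edgeR adjusted p = 0.000310) and *Csf1r* (adjusted p = 0.000861), the receptor gene of a MØ growth factor, were called higher in 3W-PSCs against mono-PSCs, with 36 to 55 and 15 to 27 counts. With at most 10 and 2 counts in a mono-PSC library, both entered this test only through 3W-PSCs. There *Lyz2* reached 107 and *Laptm5* 75 counts, *Ptprc*, the pan-leukocyte gene, 20 at most, and *Emr1* had none. *Csf1r* was also read where no MØs were present, at 1 to 28 counts per 2W-PSC library. Its log2 fold change from 2W-PSCs to 3W-PSCs was 0.07 (edgeR adjusted p = 0.965), or 1.46 (adjusted p = 0.134) without 2W-PSC replicate 2. Neither was called, whereas *Cd53* was called higher in this comparison (2.45, edgeR adjusted p = 0.00355). What these transcripts add to the integrin counts was not tested.

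**Figure D1:**
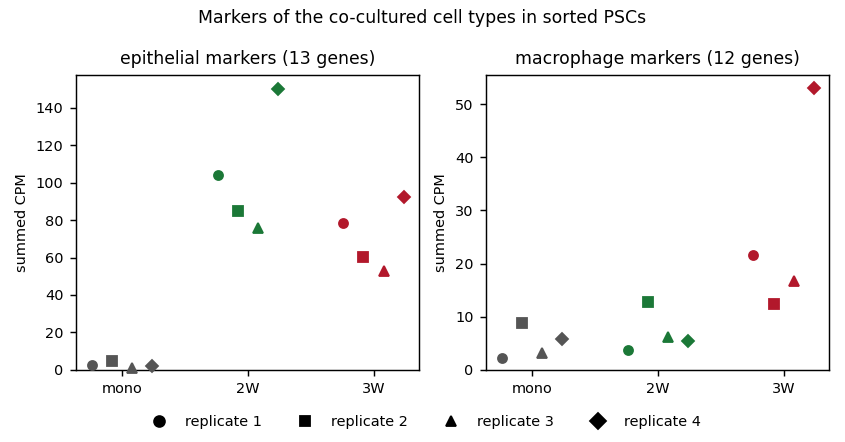
Summed level of the epithelial (13 genes) and macrophage (12 genes) markers in each library, in CPM, by culture, with 1 symbol per replicate. Epithelial markers stood at 75.9 to 150.3 CPM (2W-PSCs) and at 52.8 to 92.2 CPM (3W-PSCs) against at most 4.76 CPM in mono-PSCs, and the highest macrophage sum, 53.0 CPM, was that of 3W-PSC replicate 4.

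The promoters of members whose level differed between cultures are shown first, since genes that move together can be compared by their sequence. RefSeq start sites on GRCm38.p6 were at hand for 8 of the 10 members, and the 250 bases before the start are printed 5′ to 3′ on the strand of the gene. Capitals mark sites of the motifs searched for on both strands, which in these 5 sequences are Sp1 sites (GGGCGG, read on the other strand as CCGCCC) only. *Itgb5*, *Itgav* and *Itga5* were above mono-PSCs in 3W-PSCs, and *Itga1* and *Itga11* were lower in 3W-PSCs than in 2W-PSCs.
*Itgb5* (chr16:33829415-33829664, plus strand): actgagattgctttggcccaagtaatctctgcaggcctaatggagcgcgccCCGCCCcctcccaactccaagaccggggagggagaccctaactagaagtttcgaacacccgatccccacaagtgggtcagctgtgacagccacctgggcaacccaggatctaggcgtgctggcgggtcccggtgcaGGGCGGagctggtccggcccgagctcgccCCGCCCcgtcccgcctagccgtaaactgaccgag
*Itgav* (chr2:83724147-83724396, plus strand): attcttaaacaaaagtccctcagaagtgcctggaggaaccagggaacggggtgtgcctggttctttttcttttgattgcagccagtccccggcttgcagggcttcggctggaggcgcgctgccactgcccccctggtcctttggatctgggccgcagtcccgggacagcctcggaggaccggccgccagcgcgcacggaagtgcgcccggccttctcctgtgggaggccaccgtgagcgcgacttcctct
*Itga5* (chr15:103366792-103367041, minus strand): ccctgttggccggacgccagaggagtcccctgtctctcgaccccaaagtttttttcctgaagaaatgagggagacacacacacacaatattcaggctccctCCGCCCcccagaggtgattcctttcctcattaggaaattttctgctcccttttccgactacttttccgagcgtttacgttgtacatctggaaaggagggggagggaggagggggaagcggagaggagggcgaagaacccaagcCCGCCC
*Itga1* (chr13:115101965-115102214, minus strand): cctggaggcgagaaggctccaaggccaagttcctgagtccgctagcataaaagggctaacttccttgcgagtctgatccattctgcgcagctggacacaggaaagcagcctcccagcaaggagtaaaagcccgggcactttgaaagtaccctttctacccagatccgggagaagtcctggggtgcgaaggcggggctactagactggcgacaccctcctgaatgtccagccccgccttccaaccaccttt
*Itga11* (chr9:62677605-62677854, plus strand): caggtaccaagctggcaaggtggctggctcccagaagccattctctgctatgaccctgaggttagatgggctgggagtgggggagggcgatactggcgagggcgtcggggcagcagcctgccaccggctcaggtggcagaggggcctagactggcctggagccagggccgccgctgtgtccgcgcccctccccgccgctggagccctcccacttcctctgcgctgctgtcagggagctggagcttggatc
The *Itgb5* window held 3 Sp1 sites, whose first bases lay 199, 63 and 34 bases before the start, and the *Itga5* window 2, at 149 and 6 bases. Neither the *Itgav* window nor those of the collagen receptors *Itga1* and *Itga11* held one, so the members that were higher did not share this site. Of 32851 mouse promoter windows of the same length, 32.7% held an Sp1 site. Also searched for were the AP-1 site TGANTCA (6.75% of windows), the STAT site TTCNNNGAA (7.02%), the TEAD site GGAATG (12.6%), the SRF CArG box (1.47%) and the NF-kB site (7.25%). Among the 8 members searched, which leaves *Itga6* and *Itgb3* with no entry, 1 TEAD site was found, 7 bases before the start of *Itgb1*, and no AP-1, STAT, CArG or NF-kB site. A match of letters is a description of the sequence and not a bound site.

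By level, the subunits kept a steep order. *Itgb1*, the common β partner, led in every culture with a mean of 758 CPM in mono-PSCs, followed by *Itgb5* and *Itgav*. *Itga3* and *Itga6* lay next, and *Itga1*, *Itga5*, *Itga11*, *Itgb3* and *Itga2* stood under 10 CPM on average in all 3 cultures. At such levels a gene had between 0 and 95 counts per library, where counting error weighs most. No 75-base window in the last 500 bases of a member's coding transcripts was found in another gene of the GENCODE M21 annotation.

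**Figure D2:**
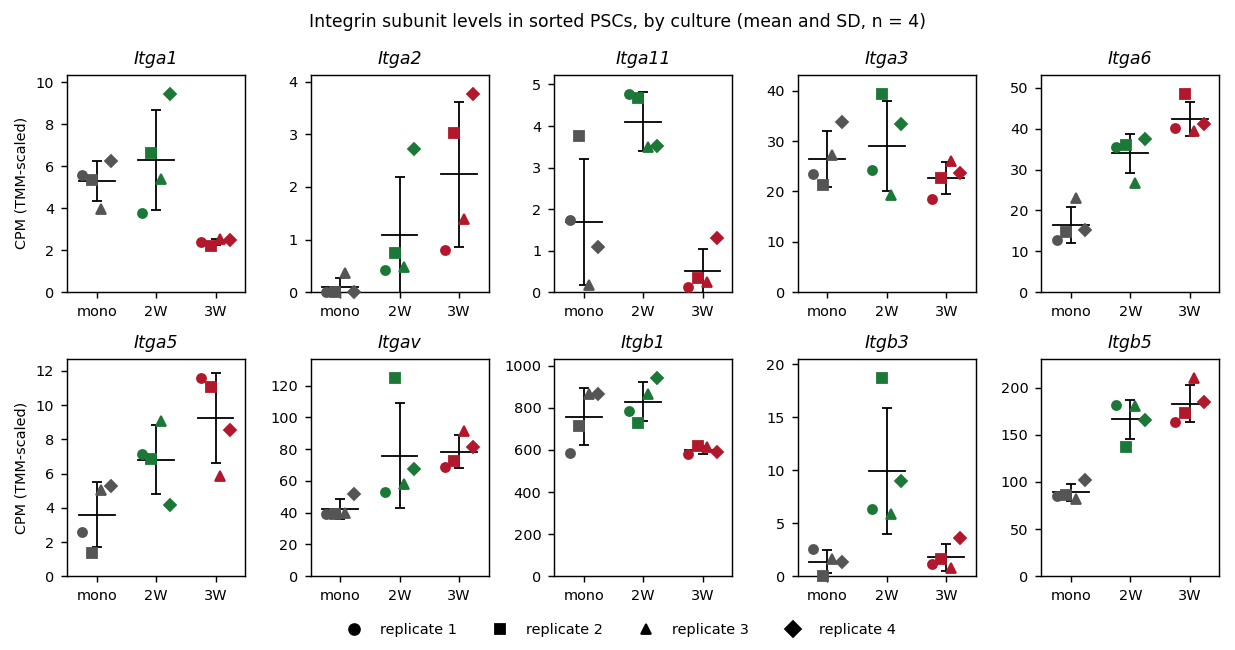
Level of each member in the 12 libraries, in CPM on linear axes that start at 0 and differ between panels, with 1 symbol per replicate and bars for mean and SD (n = 4). *Itgb5*, *Itga6*, *Itgav* and *Itga5* lie above mono-PSCs in 3W-PSCs, *Itga11* and *Itgb3* peak in 2W-PSCs, and *Itga1* is lowest in 3W-PSCs.

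Against mono-PSCs, 1 of the 9 members tested was higher in 2W-PSCs, *Itgb5*, and none was lower (0 also at an unadjusted p under 0.05 in edgeR, and 0 in DESeq2). In this comparison 0.991% of the 11199 genes tested were called at an adjusted p under 0.05, and 0.839% were called higher (quasi-likelihood test of edgeR, p-values adjusted over all genes after Benjamini and Hochberg). The fitted log2 fold change was above 0 for all 9 members, with a median of 0.93 beside 0.02 over all genes, and the libraries of the 2 cultures did not overlap for 4 members, which was the case for 5.75% of genes. Between 3W-PSCs and mono-PSCs, 5 of 8 members differed, with *Itgb5*, *Itga6*, *Itgav* and *Itga5* higher and *Itga1* lower, where 26.4% of 11551 genes were called. The median log2 fold change was 0.61 over the members and 0.01 over all genes. Between 3W-PSCs and 2W-PSCs, 3 of 9 members were called, all lower in 3W-PSCs (*Itga11*, *Itgb3* and *Itga1*), where 10.7% of 11513 genes were called, 5.73% higher and 4.95% lower. *Itga11* and *Itgb3* entered this test and that of 2W-PSCs against mono-PSCs only because of their counts in 2W-PSCs. The counts of members in both comparisons, and the median of 0.93, are therefore a description. Without 2W-PSC replicate 2, 2 members were called higher in 2W-PSCs against mono-PSCs (*Itgb5* and *Itga6*, of 233 genes in all) and 4 lower in 3W-PSCs against 2W-PSCs (*Itgb1* in addition, of 2107). With all libraries, those of 3W-PSCs and mono-PSCs did not overlap for 5 of 8 members tested and for 3002 of 11551 genes. Between 3W-PSCs and 2W-PSCs this held for 5 of 9 members and 2449 of 11513 genes. Separate libraries were thus more common in these comparisons than in 2W-PSCs against mono-PSCs. The comparisons share their libraries and are not independent of one another.

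**Figure D3:**
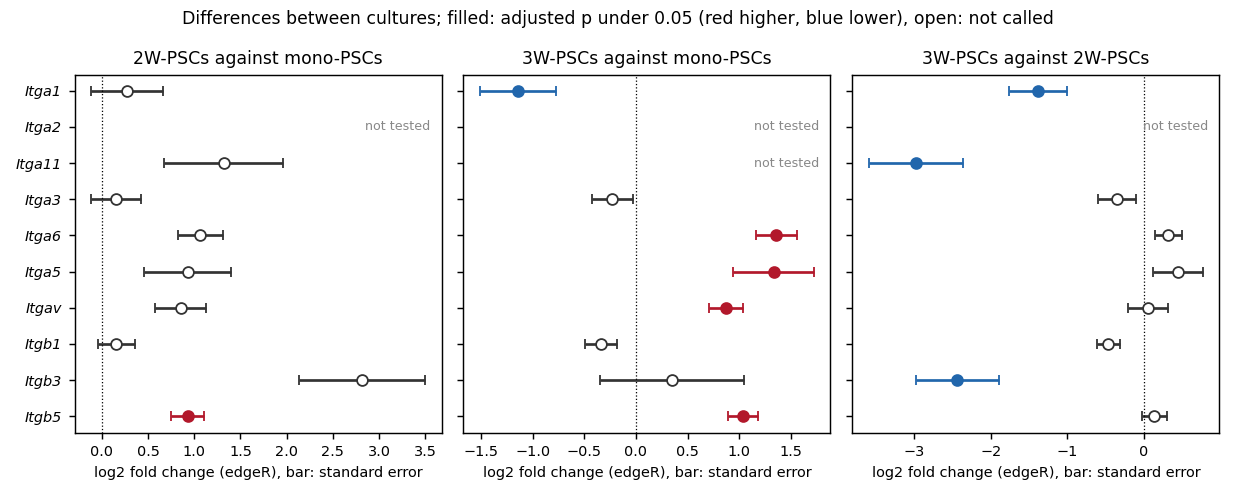
Log2 fold change of each member in the 3 comparisons, fitted with edgeR, with its standard error as a bar. Filled symbols mark an adjusted p under 0.05, of which there is 1 in 2W-PSCs against mono-PSCs, 5 in 3W-PSCs against mono-PSCs and 3, all lower, in 3W-PSCs against 2W-PSCs.

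*Itgb5* on chromosome 16 (GRCm38, 33829665 to 33949338, plus strand) encodes the β5 subunit, which pairs with αv to bind vitronectin. Its level was 85.6, 86.2, 81.9 and 102 CPM in the 4 mono-PSC libraries, 182, 137, 181 and 166 CPM in 2W-PSCs, and 164, 174, 209.9 and 185 CPM in 3W-PSCs. Every co-culture library lay above every mono-PSC library, whereas those of 2W-PSCs and 3W-PSCs overlapped. *Itgb5* rose in 2W-PSCs, where the log2 fold change was 0.93 (SE 0.18, edgeR adjusted p = 0.0298), and in 3W-PSCs, where it was 1.04 (SE 0.15, adjusted p = 5.73e-05), both against mono-PSCs. From 2W-PSCs to 3W-PSCs the log2 fold change was 0.13 (edgeR adjusted p = 0.638). The call in 2W-PSCs was lost when any 1 library other than 2W-PSC replicate 2 was left out, with log2 fold changes of 0.87 to 0.99 and edgeR adjusted p-values of 0.0755 to 0.133, and without replicate 2 it was 0.999 (adjusted p = 0.00316). In bulk RNA, fewer cells that express a gene and less RNA per cell cannot be told apart, here and for the members that follow.

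The most abundant member, *Itgb1* (chromosome 8, 128685654 to 128733200, plus strand), encodes the shared β1 subunit. It measured 586, 715, 866 and 866 CPM in mono-PSCs, 787, 729, 864 and 940.1 CPM in 2W-PSCs, and 580.0, 619.8, 612 and 590.2 CPM in 3W-PSCs. The 3W-PSC libraries were close together and all below those of 2W-PSCs, but overlapped with those of mono-PSCs. No difference passed the test, with log2 fold changes of 0.15 in 2W-PSCs (edgeR adjusted p = 0.999) and -0.34 in 3W-PSCs (adjusted p = 0.120) against mono-PSCs. Between 3W-PSCs and 2W-PSCs it was -0.47 (SE 0.15, edgeR adjusted p = 0.0718). This last difference was called without 2W-PSC replicate 2, at -0.53 (edgeR adjusted p = 0.0118), and without mono-PSC replicate 1 the difference between 3W-PSCs and mono-PSCs was called, at -0.45 (adjusted p = 0.0139).

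*Itgb3* (chromosome 11, 104608000 to 104670476, plus strand) encodes β3, the other partner of αv considered here, which also pairs with αIIb on platelets. Mono-PSC libraries had 2.61, 0, 1.62 and 1.32 CPM, 2W-PSC libraries 6.30, 18.7, 5.87 and 8.94 CPM, and 3W-PSC libraries 1.196, 1.63, 0.763 and 3.63 CPM. All 4 libraries of 2W-PSCs were above all others, and mono-PSCs and 3W-PSCs overlapped. In counts this was 37 to 76 reads per library in 2W-PSCs against at most 15 in mono-PSCs and 28 in 3W-PSCs. *Itgb3* was lower in 3W-PSCs than in 2W-PSCs, at a log2 fold change of -2.44 (SE 0.54, edgeR adjusted p = 0.0166). Against mono-PSCs the value in 2W-PSCs was 2.81 (SE 0.68, adjusted p = 0.0907, edgeR) and was not called. The exact two-sided permutation test gave an unadjusted p = 0.0286, the smallest that 4 libraries against 4 allow. It restates that the libraries did not overlap, as was the case for 5.75% of genes. The difference between 3W-PSCs and 2W-PSCs lost its call without 3W-PSC replicate 1 (edgeR adjusted p = 0.0626) or replicate 2 (adjusted p = 0.0663), and without 2W-PSC replicate 2, which held the highest level, it was -1.96 (adjusted p = 0.0109).

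The RGD-binding α subunits were both higher in 3W-PSCs than when cultured alone. *Itgav* (chromosome 2, 83724397 to 83806916, plus strand) encodes αv, the partner of β3 and β5. It stood at 39.1, 39.2, 39.8 and 51.9 CPM in mono-PSCs, 53.0, 125, 58.1 and 67.6 CPM in 2W-PSCs, and 68.7, 72.7, 91.6 and 81.1 CPM in 3W-PSCs. All co-culture libraries exceeded all mono-PSC libraries, and the level in 2W-PSC replicate 2 was above any other. *Itgav* rose in 3W-PSCs, by a log2 fold change of 0.88 (SE 0.17, edgeR adjusted p = 0.000754), and the value in 2W-PSCs was 0.85 (SE 0.27, adjusted p = 0.285), which did not pass the test. Without 2W-PSC replicate 2 the latter was 0.49 (edgeR adjusted p = 0.329). The annotation places 634 exonic bases of *Itgav* opposite those of *Gm13684*, a gene on the other strand.

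*Itga5* (chromosome 15, 103344286 to 103366763, minus strand) encodes α5, which with β1 forms the classical fibronectin receptor. Its levels were 2.61, 1.39, 5.04 and 5.29 CPM in mono-PSCs, 7.14, 6.88, 9.05 and 4.15 CPM in 2W-PSCs, and 11.6, 11.03, 5.85 and 8.56 CPM in 3W-PSCs. The 3W-PSC libraries were above every mono-PSC library, by a small margin for replicate 3, and 2W-PSCs overlapped with both. *Itga5* rose in 3W-PSCs against mono-PSCs with a log2 fold change of 1.33 (SE 0.39, edgeR adjusted p = 0.0176). In 2W-PSCs the value against mono-PSCs was 0.93 (SE 0.47, edgeR adjusted p = 0.758), and 0.91 (adjusted p = 0.629) without 2W-PSC replicate 2. The call in 3W-PSCs was lost without 3W-PSC replicate 1 (edgeR adjusted p = 0.0584) or replicate 2 (adjusted p = 0.0574), where the log2 fold change was 1.21 and 1.24.

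Of the laminin receptors, *Itga6* was higher in 3W-PSCs and *Itga3* did not differ beyond the spread between libraries. *Itga6* (chromosome 2, 71745616 to 71858416, plus strand) encodes α6, which pairs with β1, or with β4 in epithelia. It measured 12.9, 14.7, 23.0 and 15.3 CPM in mono-PSCs, 35.4, 36.1, 26.8 and 37.4 CPM in 2W-PSCs, and 40.3, 48.4, 39.4 and 41.2 CPM in 3W-PSCs. The 3 cultures did not overlap and followed one another in this order. The log2 fold change was 1.36 in 3W-PSCs against mono-PSCs (SE 0.20, edgeR adjusted p = 8.34e-05). In 2W-PSCs it was 1.07 (SE 0.25, adjusted p = 0.0717, edgeR), and between 3W-PSCs and 2W-PSCs 0.32 (SE 0.18, adjusted p = 0.284), neither of which passed the test. Without 2W-PSC replicate 2 the difference between 2W-PSCs and mono-PSCs was called at 1.02 (edgeR adjusted p = 0.0439). *Itgb4*, the partner of α6 in epithelia, had at most 15 counts in any library.

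*Itga3* (chromosome 11, 95044474 to 95076801, minus strand) encodes α3. Its levels of 23.5, 21.2, 27.2 and 33.9 CPM in mono-PSCs, 24.2, 39.3, 19.4 and 33.4 CPM in 2W-PSCs, and 18.5, 22.8, 26.1 and 23.6 CPM in 3W-PSCs overlapped throughout. Log2 fold changes were 0.15 in 2W-PSCs (SE 0.27, edgeR adjusted p = 0.999) and -0.23 in 3W-PSCs (SE 0.20, adjusted p = 0.437) against mono-PSCs. Without 2W-PSC replicate 2, its highest library, the former was -0.04 (edgeR adjusted p = 0.992). The order of the 2 laminin receptors within a library was looked at after their values were seen, and is free of the scaling between libraries. There were 0.45 to 0.848 *Itga6* counts per *Itga3* count in mono-PSCs, 0.919 to 1.46 for 2W-PSCs and 1.51 to 2.18 for 3W-PSCs. *Itga3* thus had more counts than *Itga6* in all 4 mono-PSC libraries, and *Itga6* had more in 3 of 4 libraries of 2W-PSCs, replicate 2 being the exception, and 4 of 4 of 3W-PSCs.

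The collagen receptors all averaged under 10 CPM, and their patterns across the cultures differed. *Itga1* (chromosome 13, 114953096 to 115101964, minus strand) encodes α1, a receptor of fibrillar and basement membrane collagens. Its libraries held 5.56, 5.35, 3.96 and 6.25 CPM in mono-PSCs, 3.78, 6.63, 5.40 and 9.42 CPM in 2W-PSCs, and 2.39, 2.21, 2.54 and 2.46 CPM in 3W-PSCs. Those of 3W-PSCs were lower than all others, and the other 2 cultures overlapped. *Itga1* fell by 1.14 on the log2 scale from mono-PSCs to 3W-PSCs (SE 0.37, edgeR adjusted p = 0.0289) and was lower in 3W-PSCs than in 2W-PSCs, with -1.39 (SE 0.38, adjusted p = 0.0386). With 18 to 59 counts per library, both calls were near the threshold. The first was lost without mono-PSC replicate 2 or 4 or any 1 of the 3W-PSC libraries (edgeR adjusted p = 0.0505 to 0.0877), and the second without 2W-PSC replicate 4 or any 1 of the 3W-PSC libraries (0.0847 to 0.126), while without 2W-PSC replicate 2 it was -1.36 (0.0315). *Itga1* shares 685 exonic bases with *Gm49395* on the same strand.

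*Itga11* (chromosome 9, 62677826 to 62783982, plus strand) encodes α11, a receptor of fibrillar collagen found mainly on fibroblasts. It was at 1.74, 3.77, 0.180 and 1.08 CPM in mono-PSCs, 4.76, 4.67, 3.49 and 3.51 CPM in 2W-PSCs, and 0.133, 0.348, 0.254 and 1.30 CPM in 3W-PSCs. The 2W-PSC libraries were above all those of 3W-PSCs, which had 1 to 10 counts, and mono-PSCs overlapped with both. *Itga11* was lower in 3W-PSCs than in 2W-PSCs, at a log2 fold change of -2.98 (SE 0.61, edgeR adjusted p = 0.0118), a call that was lost without 3W-PSC replicate 2 (-2.83, adjusted p = 0.0577) and not without 2W-PSC replicate 2 (-2.92, adjusted p = 0.00516). Summed over 4 libraries the counts were 97 in 2W-PSCs and 16 in 3W-PSCs, a ratio of 0.124 with an exact counting interval of 0.0680 to 0.211. In 2W-PSCs against mono-PSCs the log2 fold change was 1.32 (SE 0.65, edgeR adjusted p = 0.731), and 3W-PSCs against mono-PSCs was below the filter on low counts.

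*Itga2* (chromosome 13, 114833081 to 114932100, minus strand) encodes α2 and lies 20995 bases from *Itga1* on the same strand. It was too low to be tested in any comparison, with 0, 0, 0.360 and 0 CPM in mono-PSCs, 0.420, 0.737, 0.476 and 2.72 CPM in 2W-PSCs, and 0.797, 3.02, 1.40 and 3.76 CPM in 3W-PSCs. Every co-culture library lay above every mono-PSC library. There were 2 counts in all of mono-PSCs, 26 in 2W-PSCs and 72 in 3W-PSCs, which gave 28.01 times the level in 3W-PSCs, with an exact counting interval of 7.48 to 236, and 13.5 times in 2W-PSCs (3.38 to 117). These intervals hold counting error only. Against a floor of 3 counts per library the level was 4.45 times as high in 3W-PSCs and 2.16 times in 2W-PSCs. Of the 26 counts in 2W-PSCs, 17 were in replicate 4. When the filter was lifted, edgeR called the difference between 3W-PSCs and mono-PSCs, with a log2 fold change of 4.50 (adjusted p = 0.000237), but not that between 2W-PSCs and mono-PSCs (3.37, adjusted p = 0.623). α2 is widespread in epithelia, and the epithelial markers were also low in mono-PSCs. Their sums were 104, 84.7, 75.9 and 150.3 CPM in the 4 libraries of 2W-PSCs and 78.5, 60.02, 52.8 and 92.2 CPM in those of 3W-PSCs. Replicate 4 had the highest sum and the highest *Itga2* level of each co-culture, the other libraries did not share an order, and the sums were lower with MØs present where the *Itga2* counts were higher. The part of these transcripts in the *Itga2* counts was not tested.

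Shares of the subunit counts within a library do not depend on the scaling between libraries and show how the make-up of the receptors' transcripts differed. Of the counts of the 3 β genes, *Itgb1* took 86.9 to 91.2% in mono-PSCs, 80.7 to 84.3% when PCCs were present and 74.4 to 78.0% in 3W-PSCs. *Itgb5* took 8.62 to 12.7%, 14.9 to 18.6% and 21.8 to 25.5% in the same order. For both genes no library of one culture reached into the range of another. Among the 7 α genes, *Itgav* held the most, with a mean of 44.3% in mono-PSCs, 47.0% (2W-PSCs) and 49.6% (3W-PSCs). The share of *Itga6* was 17.2%, 22.4% and 26.9%, and that of *Itga3* 27.3%, 18.4% and 14.3%. The 3 collagen receptors were a minor part throughout, with *Itga1* at 5.56% in mono-PSCs, 4.08% in 2W-PSCs and 1.52% in 3W-PSCs, and *Itga2* at 1.40% in 3W-PSCs.

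The α genes summed to 96.1 ± 13.5 CPM (mean ± SD, n = 4) in mono-PSCs, to 157 ± 44.0 CPM with PCCs present and to 158 ± 10.8 CPM with both PCCs and MØs. The β genes, which *Itgb1* dominates, summed to 848 ± 138, 1006 ± 99.4 and 785 ± 32.5 CPM. Per 100 β counts there were 11.4 ± 1.01 α counts in mono-PSCs and 20.1 ± 0.713 in 3W-PSCs, in ranges that did not meet (10.5 to 12.7 and 19.1 to 20.8). In 2W-PSCs replicate 2 had 24.7, and the other 3 libraries 11.7 to 14.2, below every library of 3W-PSCs. Without this replicate, a calculation added after the values were seen, the α genes of 2W-PSCs summed to 137 ± 18.9 CPM (n = 3) and the β genes to 1047 ± 70.2 CPM, and *Itgav*, *Itga6* and *Itga3* took 43.7%, 24.3% and 18.6% of the α counts. No test was run on the shares and sums, which were read from the same counts as the levels.

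**Figure D4:**
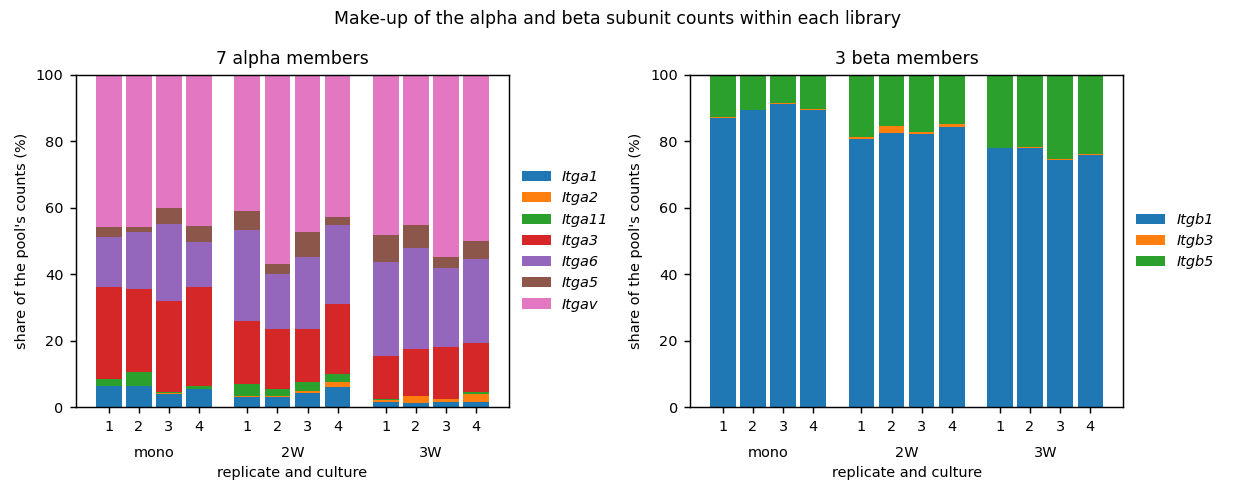
Share of each gene in the counts of the 7 α members (left) and the 3 β members (right), in percent, with 1 stacked bar per library that adds up to 100. The *Itgb5* share stands at 8.62 to 12.7% in mono-PSCs, 14.9 to 18.6% (2W-PSCs) and 21.8 to 25.5% (3W-PSCs), and on average *Itga6* widens as *Itga3* narrows.

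Beyond these members, 16 other integrin subunits were in the table, and most were at or near 0 in PSCs. Only 2 to 4 passed the filter on low counts in a comparison, none of which was called higher (0 also at an unadjusted p under 0.05 in edgeR, and 0 in DESeq2). *Itga2b*, which encodes the platelet subunit αIIb, was lower in 3W-PSCs (9.82 CPM) than in mono-PSCs (23.96 CPM, log2 fold change -1.28, edgeR adjusted p = 0.00369) and 2W-PSCs (19.7 CPM, -1.01, adjusted p = 0.0242). *Itga7*, which encodes a laminin receptor of muscle, was lower in 3W-PSCs (5.56 CPM) than in mono-PSCs (10.9 CPM, -0.97, edgeR adjusted p = 0.0280). *Itgb7*, a leukocyte β subunit, did not differ between 3W-PSCs and mono-PSCs beyond its spread (2.45 and 1.90 CPM, log2 fold change 0.26, edgeR adjusted p = 0.810). Of the subunits typical of MØs and other leukocytes, *Itgax* and *Itgad* had no counts at all, *Itgam* had at most 8 and *Itgb2* at most 29, both in 3W-PSCs. *Itgb6*, an epithelial partner of αv, had at most 4.

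Inside the cell, integrins are joined to actin by the adhesion complex, of which 27 of 30 listed genes were tested in each comparison. In 3W-PSCs against mono-PSCs, 10 were higher and 1 lower, where 1550 of all 11551 genes tested were called higher and 1504 lower. The median log2 fold change of the 27 was 0.27 beside 0.01 over all genes. *Parvb*, which encodes the actin-binding partner of the integrin-linked kinase β-parvin, rose from 10.3 to 57.3 CPM (log2 fold change 2.48, edgeR adjusted p = 1.04e-07). *Bcar1*, which encodes the Src substrate p130Cas, rose from 37.3 to 99.5 CPM (1.41, edgeR adjusted p = 0.000719), and the actin crosslinker *Actn1* from 240.4 to 588 CPM (1.28, adjusted p = 0.000122). *Itgb1bp1*, which encodes ICAP-1, a binder of the β1 tail that opposes its activation, fell from 90.6 to 41.8 CPM (-1.12, edgeR adjusted p = 0.000161). Talin 1, vinculin and the integrin-linked kinase were not called, with log2 fold changes of 0.19 (*Tln1*), -0.10 (*Vcl*) and 0.08 (*Ilk*).

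Compared with 2W-PSCs, 4 of the 27 adhesion complex genes were higher in 3W-PSCs and 2 lower, where 5.73% of all genes were called higher and 4.95% lower. The median of the 27 was 0.16 beside 0.00 over all genes. Without 2W-PSC replicate 2 their counts were 7 and 2, where 1098 and 1009 of all 11736 genes tested were called higher and lower. The higher ones included *Parvb* (17.8 to 57.3 CPM, log2 fold change 1.67, edgeR adjusted p = 0.00934), the kinase gene *Src* (14.4 to 33.01 CPM, 1.19, adjusted p = 0.00746) and the tensin gene *Tns3* (21.3 to 48.4 CPM, 1.18, adjusted p = 0.00937). Another tensin gene, *Tns1*, was lower (26.9 to 13.6 CPM, -0.98, edgeR adjusted p = 0.0484), as was *Itgb1bp1* (64.1 to 41.8 CPM, -0.62, adjusted p = 0.0452). In 2W-PSCs against mono-PSCs 1 of 27 was called, *Fermt1*, which was named after its values were seen, and 2 without 2W-PSC replicate 2, where *Parvb* was added (log2 fold change 1.09, edgeR adjusted p = 0.0401). Of all genes, 0.839% were called higher with all libraries, and 183 of 11481 without this replicate. *Fermt1* encodes kindlin-1, the kindlin of epithelia, had 0 counts in mono-PSCs, 105 in 2W-PSCs and 117 in 3W-PSCs, and was at least 8.31-fold higher in 2W-PSCs against a floor of 3 counts per library. It entered the tests against mono-PSCs only through its counts in the co-cultures. The epithelial markers were low or absent in the same mono-PSC libraries.

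Lateral partners sit beside integrins in the membrane, and of these 9 genes 1 was higher and 1 lower in 3W-PSCs than mono-PSCs. Of all 11551 genes tested there, 1550 were called higher and 1504 lower, so the list did not stand out by its counts. *Cd47*, which encodes a receptor of thrombospondin that associates with αv integrins, rose from 129 to 297 CPM (log2 fold change 1.20, edgeR adjusted p = 2.29e-05) and was also higher than in 2W-PSCs (0.85, adjusted p = 0.0475). *Cd151*, which encodes the tetraspanin of the laminin receptors, fell from 77.2 to 52.8 CPM (-0.55, edgeR adjusted p = 0.0354), and without 2W-PSC replicate 2 it was also called lower than in 2W-PSCs (-0.66, adjusted p = 0.00426). No lateral partner was called in 2W-PSCs against mono-PSCs (0 at an unadjusted p under 0.05 in edgeR, 0 in DESeq2).

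The ligands that the receptors bind were also transcribed by PSCs. Of 9 collagen genes none was called in 2W-PSCs against mono-PSCs, where their median log2 fold change was 0.58. There 6 were higher at an unadjusted p under 0.05 in edgeR, and DESeq2 called 2. In 3W-PSCs against 2W-PSCs 4 were lower, beside 4.95% of all genes tested, with a median of -0.61. *Col3a1* averaged 524, 454 and 136 CPM in mono-PSCs, 2W-PSCs and 3W-PSCs, and was lower in 3W-PSCs than in mono-PSCs (-1.95, edgeR adjusted p = 3.04e-07) and 2W-PSCs (-1.74, adjusted p = 0.000538). *Col6a2* was lower in 3W-PSCs than in 2W-PSCs (145 to 59.2 CPM, -1.29, edgeR adjusted p = 0.00373) and than in mono-PSCs (88.7 CPM, -0.59, adjusted p = 0.0303). *Col1a1*, which encodes the main chain of type I collagen, was lower in 3W-PSCs than in 2W-PSCs (3098 to 1729 CPM, -0.84, edgeR adjusted p = 0.0157), and *Col5a1*, which was the fourth, had -0.74 (adjusted p = 0.00780). In the same comparison the collagen receptors *Itga1* and *Itga11* were lower, but *Itga2*, too low to be tested, had 26 counts in 2W-PSCs and 72 in 3W-PSCs. This was 2.08 times the level, with an exact counting interval of 1.31 to 3.39, and edgeR did not call it without the filter (adjusted p = 0.455). Between 3W-PSCs and 2W-PSCs 6 of the 9 collagen genes were lower without 2W-PSC replicate 2, beside 1009 of all 11736 genes tested.

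Laminin genes were divided in 3W-PSCs against mono-PSCs, where *Lamb1* (95.9 to 179 CPM, log2 fold change 0.89, edgeR adjusted p = 0.00103) and *Lamc1* (31.97 to 58.9 CPM, 0.86, adjusted p = 0.0349) rose and *Lamb2* (95.7 to 53.6 CPM, -0.84, adjusted p = 0.00104) fell. None of the 4 laminin genes tested was called by edgeR in the other comparisons, where an unadjusted p under 0.05 was met by 1 (2W-PSCs against mono-PSCs) and 2 (3W-PSCs against 2W-PSCs), and DESeq2 called 0 and 2. Without 2W-PSC replicate 2, edgeR called *Lamc1* higher (0.77, adjusted p = 0.0141) and *Lamb2* lower (-0.59, adjusted p = 0.0336) in 3W-PSCs against 2W-PSCs. Of 13 RGD and other matrix ligands tested, 6 were higher and 1 lower in 3W-PSCs, set against mono-PSCs, with a median log2 fold change of 0.65. Of all 11551 genes tested there, 1550 were called higher and 1504 lower. *Spp1*, which encodes osteopontin, an RGD ligand of αv integrins, averaged 82.2, 389 and 998 CPM in the same order of cultures. It was the 1 ligand of this list called in 2W-PSCs (2.26, edgeR adjusted p = 0.00601), and was higher in 3W-PSCs than mono-PSCs (3.60, adjusted p = 1.20e-08) and 2W-PSCs (1.36, adjusted p = 0.00871). Without 2W-PSC replicate 2, 5 of the 13, and in DESeq2 with all libraries 6, were called higher in 2W-PSCs, against mono-PSCs. Over all genes, 183 of 11481 were called higher without this replicate, and DESeq2 called 275 in either direction.

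Other ligands that rose from mono-PSCs to 3W-PSCs were the periostin gene *Postn* (21.5 to 108 CPM, log2 fold change 2.32, edgeR adjusted p = 2.41e-06) and *Ctgf*, which encodes connective tissue growth factor (52.5 to 237 CPM, 2.16, adjusted p = 0.00719). *Ltbp1*, which encodes a binder of latent TGFβ, was higher in 3W-PSCs (146 CPM) than in 2W-PSCs (71.5 CPM, 1.03, edgeR adjusted p = 0.00512). *Fbln5*, which encodes the elastic fibre protein fibulin-5, an RGD protein, was lower in 3W-PSCs (66.5 CPM) than in mono-PSCs (219 CPM, -1.72, edgeR adjusted p = 5.34e-06) and 2W-PSCs (207 CPM, -1.64, adjusted p = 0.00110).

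**Figure D5:**
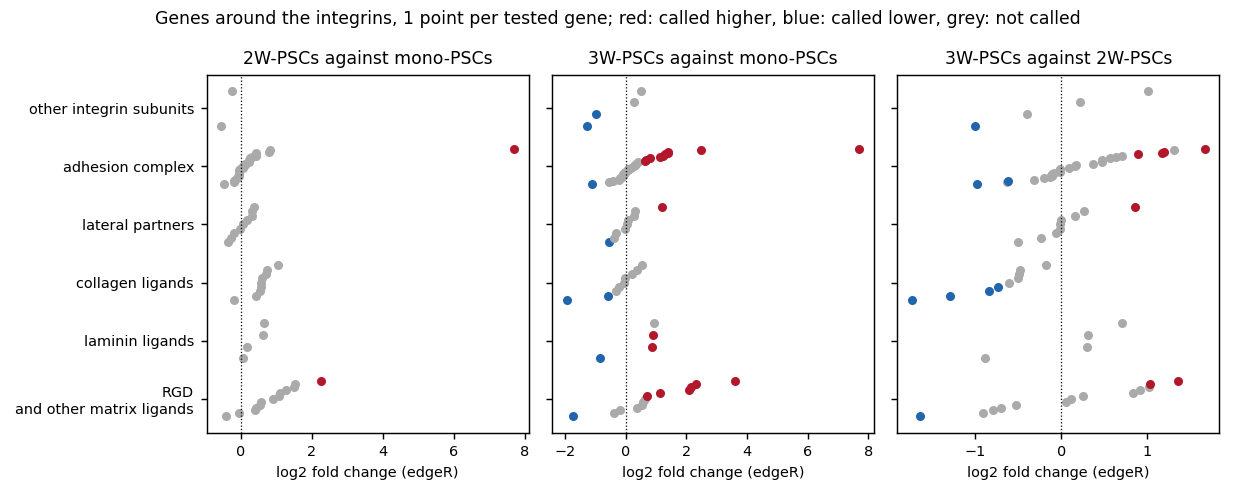
Log2 fold changes fitted with edgeR for the genes around the integrins, with 1 point per tested gene, sorted within its list, in the 3 comparisons. In 3W-PSCs against 2W-PSCs all 9 collagen points lie below 0, 4 of them called, whereas *Spp1* leads the RGD and other matrix ligands. The far right point of the adhesion complex is *Fermt1*, whose value depends on the prior count as mono-PSCs had 0 counts.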

How the data were processed

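RNA of sorted PSCs was measured in 12 libraries, 4 per culture, labelled as biological replicates. The authors made QuantSeq 3′ FWD libraries, ran FastQC and trimming, and used STAR on GRCm38 and featureCounts to count reads per gene. The deposited values are whole-number counts per gene without normalisation, and they include PCR copies, since no molecular identifiers are named. The authors' own DESeq2 results were not used here.

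All 12 columns were matched to samples by the sample number they carry. Each pair of cultures was fitted by glmQLFit and tested by glmQLFTest of edgeR 4.0.16 (R 4.3.3, limma 3.58.1), with TMM scaling, filterByExpr, 8 libraries per fit and no block, and a gene was called where its Benjamini-Hochberg adjusted p, over every gene of the fit, was under 0.05. The edgeR prior count was 0.125, and CPM levels used TMM factors from the 12 libraries together. Exact permutation tests compared means of log2(CPM + 0.5). The edgeR and DESeq2 1.42.0 fits were tested on simulated data. Counts were drawn with the spread between libraries that edgeR fitted, and changes were set only in genes above a minimum mean count. Recovery therefore does not cover members of low count. Of 2-fold changes, edgeR recovered 31% (2W-PSCs against mono-PSCs), 64% (3W-PSCs against mono-PSCs) and 36% (3W-PSCs against 2W-PSCs). DESeq2 recovered 48%, 72% and 58% in the same order. False calls were 5.83%, 5.81% and 6.52% of those of edgeR and 18.6%, 11.0% and 16.9% of those of DESeq2.

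The members and lists were chosen with earlier results of these data known. All 10 members are named. Of each other list, up to 3 called genes per direction and comparison are named by size of change, at a mean log2 CPM above 3, and other integrin subunits also with 10 counts in every library of a culture. *Tln1*, *Vcl* and *Ilk* were named in addition for their role, and *Cldn4*, *Epcam* and other markers to describe the sort. Gene positions and 3′ windows come from GENCODE M21 on GRCm38, promoter windows from RefSeq on GRCm38.p6.

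Replicate numbers were not taken as pairs, and the alternatives were other scalings, filters and samples in the fit, a replicate block, DESeq2, leaving out abundant genes and leaving out each library.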

Additional observations from a re-analysis of the deposited data

Results flagged for a closer look

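In 3 of the 30 sets of 4 libraries formed by the members and cultures, 1 library stood far from the other 3 by Dixon's test, which chance does in about 1 of 20 such sets. *Itga2* was at 0.360 CPM in mono-PSC replicate 3 and at 0 in the other mono-PSC libraries, which rests on 2 counts. In 2W-PSC replicate 4 *Itga2* was at 2.72 CPM and the next library at 0.737 CPM. *Itgav* was at 51.9 CPM in mono-PSC replicate 4 and at 39.8 CPM or less in the others.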

How the results depend on the processing

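Of the called differences of members, those of *Itgb5*, *Itga6* and *Itgav* between 3W-PSCs and mono-PSCs were called under all 16 alternatives. The number of members called in 2W-PSCs against mono-PSCs, 1 in the report, was 0 with library totals alone, 2 without a filter and 3 with all 12 libraries in one fit or with DESeq2, and 0 to 2 when a library was left out. In 3W-PSCs against mono-PSCs it was 5, and 3 to 7 when a library was left out. In 3W-PSCs against 2W-PSCs it was 3, and 1 with at least 10 counts required in every library, where fewer members were tested, and 0 (without 3W-PSC replicate 2) to 4 when a library was left out. Over all genes 111 were called in 2W-PSCs against mono-PSCs, 177 without a filter, 57 with at least 10 counts in every library, 262 with all 12 libraries in one fit, 275 with DESeq2, and 61 to 233 when a library was left out. For 3W-PSCs against mono-PSCs the 3054 calls were 2228 to 4266, and for 3W-PSCs against 2W-PSCs the 1230 calls were 497 to 2107, when a library was left out. With library totals alone 65.6% of calls in 3W-PSCs against 2W-PSCs were higher in 3W-PSCs in place of 53.7%. The causes of these shifts were not tested. *Itgb5* in 2W-PSCs lost its call with library totals alone (edgeR adjusted p = 0.0780), and *Itga1* in 3W-PSCs lost it without a filter (0.0629 against mono-PSCs and 0.0545 against 2W-PSCs). DESeq2 added calls for *Itga6* and *Itgb3* in 2W-PSCs against mono-PSCs (adjusted p = 0.0106 and 0.000850), *Itga2* in 3W-PSCs against mono-PSCs (0.00141) and *Itgb1* in 3W-PSCs against 2W-PSCs (0.00856). In the simulated data a larger part of the calls was false with DESeq2 than with edgeR. Those data were drawn with the spread that edgeR fitted, so the tools were not compared on equal terms. Correlations of the deviations of same-numbered libraries were -0.05 to 0.34, above 0.1 in 3 (2W-PSCs with mono-PSCs), 1 and 1 of 4 pairs, and the closest library of another culture had the same number for 8 of 12 libraries. As not every pair was above 0.1 and the labels name no shared batch, the numbers were not taken as pairs. With the replicate block, 1, 4 and 2 members and 135, 3092 and 752 genes were called in the 3 comparisons, and *Itga1* was not called in either (adjusted p = 0.0600 against mono-PSCs and 0.101 against 2W-PSCs, edgeR). Directions that turned were those of differences never called, each when a library was left out. *Itga1* in 2W-PSCs against mono-PSCs ranged from -0.0036 to 0.44, *Itga3* in the same comparison from -0.038 to 0.30, *Itgb3* in 3W-PSCs against mono-PSCs from -0.22 to 0.81, and *Itgav* in 3W-PSCs against 2W-PSCs from -0.10 to 0.39. At about 20 counts or fewer per library, as for *Itga2*, *Itga11* and *Itgb3* in mono-PSCs, counting error limits what could be detected.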
